A study of Mus musculus with 20 samples.

Results

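The aryl hydrocarbon receptor (AhR) pathway was followed in the hippocampus of young adult mice through 7 genes of the 48709 in the count table, chosen by symbol: Ahr, Ahrr, Arnt, Arnt2, Cyp1a1, Cyp1b1 and Tiparp. Hippocampal RNA of 20 C57BL/6 offspring (C57BL/6J in the study's methods) was sequenced after ribosomal RNA depletion, with 5 control females, 5 control males, 5 nPM females and 5 nPM males. Dams of the nPM groups breathed re-aerosolized nanosized urban particulate matter (nPM) from gestational day 2 until birth, with 5 h of inhalation per exposure day and 3 such days a week. Dams of the control groups breathed filtered air. The nPM concentration was 300, which the labels give in mg/m3 and the study's methods in μg/m3. Females were 17.71 to 18.29 weeks old and males 18.57 to 19.14 weeks old, so sex and age cannot be told apart in any comparison of the sexes. By the study's methods the brains were perfused with saline, the hippocampus came from the right hemisphere, and EdU, a label of dividing cells, was given to the males, so EdU cannot be told apart from sex either. The samples of each sex were picked at random from the litters of an exposure group, and the labels do not give the litter, so p-values measure the spread between these samples and littermates cannot be accounted for.

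AhR is a ligand-activated transcription factor of the basic helix-loop-helix PAS (bHLH-PAS) family that waits in the cytoplasm with the chaperones HSP90 and p23. Ligands such as dioxins, polycyclic aromatic hydrocarbons and tryptophan metabolites send it to the nucleus, where it pairs with ARNT, or with the neuronal homolog ARNT2, and binds response elements around the core GCGTG. Targets include the monooxygenases Cyp1a1 and Cyp1b1 and the feedback inhibitors Ahrr, which competes with AhR for ARNT, and Tiparp, an ADP-ribosyltransferase that modifies AhR. By the study's account the nPM fraction used here lacks polycyclic aromatic hydrocarbons. The exposure ended at birth, and the tissue was taken in adulthood.

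The promoters of the members were searched for the string GCGTG, called the core below. RefSeq (GRCm38.p6) gave a window from 250 bases before to 50 bases after the start for 6 of the 7 members. Cores are printed in capitals, as GCGTG or, on the other strand, CACGC. The core is short, and 32.4% of 32817 promoter windows of the same 300 bases held it on either strand. The 4 target and feedback genes come first, at chr9:57697363-57697662, plus strand (Cyp1a1), chr17:79715012-79715311, minus strand (Cyp1b1), chr3:65528197-65528496, plus strand (Tiparp) and chr13:74292282-74292581, minus strand (Ahrr).
Cyp1a1: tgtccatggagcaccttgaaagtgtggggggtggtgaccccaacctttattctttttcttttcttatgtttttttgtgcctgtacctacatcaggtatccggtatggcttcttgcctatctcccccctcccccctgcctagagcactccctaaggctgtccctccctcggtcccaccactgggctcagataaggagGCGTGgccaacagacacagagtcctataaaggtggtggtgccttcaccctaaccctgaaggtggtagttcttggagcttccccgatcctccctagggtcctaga
Cyp1b1: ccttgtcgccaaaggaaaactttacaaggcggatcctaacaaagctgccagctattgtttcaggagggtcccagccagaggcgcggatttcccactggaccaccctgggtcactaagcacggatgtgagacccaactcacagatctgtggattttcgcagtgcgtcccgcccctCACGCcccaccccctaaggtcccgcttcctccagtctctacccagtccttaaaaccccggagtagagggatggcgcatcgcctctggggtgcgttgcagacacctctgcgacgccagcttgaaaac
Tiparp: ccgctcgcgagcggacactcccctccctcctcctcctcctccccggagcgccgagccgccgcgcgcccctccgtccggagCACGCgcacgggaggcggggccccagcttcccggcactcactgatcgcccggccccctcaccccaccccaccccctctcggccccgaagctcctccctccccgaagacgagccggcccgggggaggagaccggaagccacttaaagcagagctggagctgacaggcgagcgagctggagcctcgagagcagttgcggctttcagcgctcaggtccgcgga
Ahrr: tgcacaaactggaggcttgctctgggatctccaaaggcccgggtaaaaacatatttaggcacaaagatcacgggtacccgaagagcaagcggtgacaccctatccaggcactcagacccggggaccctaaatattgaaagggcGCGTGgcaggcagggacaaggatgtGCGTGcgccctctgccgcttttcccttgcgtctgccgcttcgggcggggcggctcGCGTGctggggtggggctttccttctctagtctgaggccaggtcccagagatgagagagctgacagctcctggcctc

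The cores began 54 bases before the start in Cyp1a1, 76 in Cyp1b1 and 170 in Tiparp, the last 2 on the opposite strand. Ahrr held 3, at 107, 82 and 27 bases before the start, a number reached by 3.91% of all windows. The longer pattern TNGCGTG, which contains the core, occurred in 5.06% of windows and among the members in Ahrr alone, at 1 of its 3 cores. A match is a string of letters and was not tested for binding, so it need not be a response element. Response elements farther from the start than this window were not searched.

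The partner genes are shown because Arnt is the 1 member with an unadjusted limma p under 0.005 between the sexes, and Arnt2 is its alternative. Their windows lie at chr3:95434140-95434439, plus strand (Arnt) and chr7:84409989-84410288, minus strand (Arnt2). Arnt held 1 core, 29 bases before the start, and the Arnt2 window, with 76.7% G and C, held none.
Arnt: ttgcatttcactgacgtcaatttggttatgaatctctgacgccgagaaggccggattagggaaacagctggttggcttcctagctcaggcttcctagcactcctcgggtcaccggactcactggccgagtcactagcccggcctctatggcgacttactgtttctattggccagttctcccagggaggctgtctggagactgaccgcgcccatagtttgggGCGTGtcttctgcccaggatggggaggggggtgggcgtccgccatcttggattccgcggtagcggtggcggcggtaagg
Arnt2: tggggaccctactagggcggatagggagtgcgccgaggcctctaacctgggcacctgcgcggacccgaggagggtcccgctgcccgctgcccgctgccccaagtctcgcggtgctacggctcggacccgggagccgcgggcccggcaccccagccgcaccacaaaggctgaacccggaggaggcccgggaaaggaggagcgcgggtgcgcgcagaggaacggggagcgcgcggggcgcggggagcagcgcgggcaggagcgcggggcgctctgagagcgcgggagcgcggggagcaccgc

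All 20 samples gave counts for 6 members, and 2 samples had 0 for Cyp1a1. Total counts were 19092067 to 38663408 per sample, so that 3 counts, the most a count of 0 allows, corresponded to 0.0783 to 0.164 CPM, the count scaled to the size of the library. Markers of hippocampal neurons were detected in every sample, with none at 0. Choroid plexus markers summed to 32.0 to 8245 CPM, and 7 samples (control males 2, 4 and 5, nPM females 1 and 5, nPM males 2 and 3) exceeded 1000 CPM. The 13 other samples hold only control males 1 and 3 of the control males. In bulk tissue, fewer cells of a type and less RNA per cell cannot be told apart.

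Per length, in RPKM (counts scaled by library size and exon length), the members spanned more than 2 orders of magnitude. The neuronal partner Arnt2 had the highest mean level over the 20 samples, 23.9 RPKM, followed by Tiparp at 9.05, Arnt at 4.42, Ahr at 2.00, Cyp1b1 at 1.47, Ahrr at 0.125 and Cyp1a1 at 0.0486. Neighbors in this order did not overlap across samples except for Ahr with Cyp1b1 and Ahrr with Cyp1a1. Ahr exceeded Cyp1b1 in 15 of 20 samples. The receptor was thus measured well above its repressor, with an Ahr to Ahrr ratio of RPKM of 14.0 ± 1.93 (SD, n = 10) in females and 19.1 ± 5.19 (SD, n = 10) in males, and the ranges of the sexes overlapped.

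**Figure D1:**
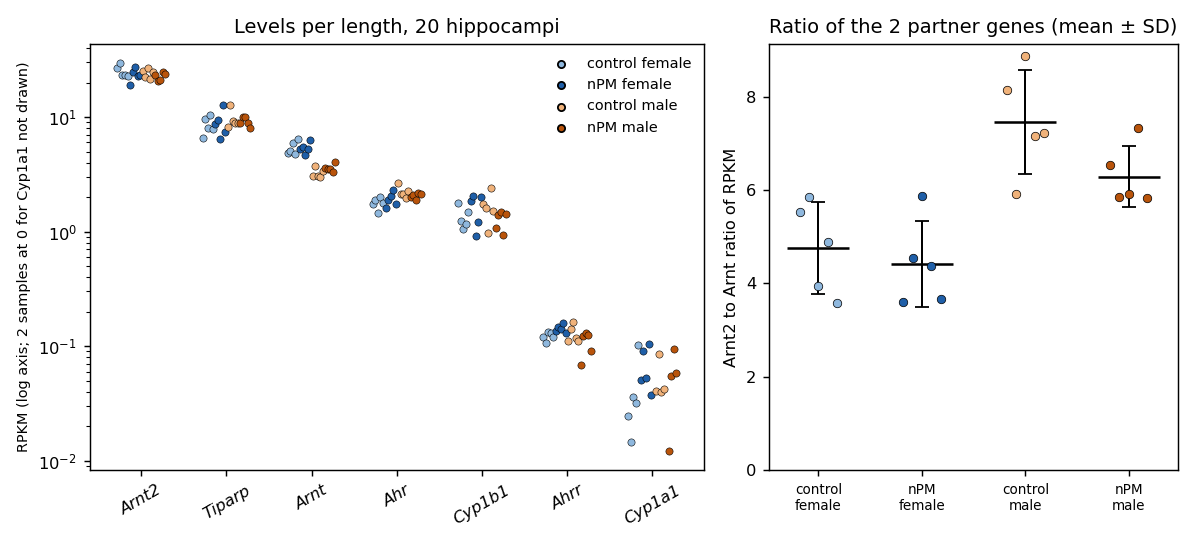
The left panel plots RPKM on a log axis for the 7 genes in every sample, with Arnt2 highest at a mean of 23.9 and Cyp1a1 lowest at 0.0486, its 2 samples at 0 not drawn. The right panel plots the Arnt2 to Arnt ratio of RPKM per sample with the mean ± SD of each group (n = 5), between 3.57 and 5.87 in females and between 5.82 and 8.86 in males.

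Gestational nPM was not followed by a detectable difference in the 6 members tested by limma-voom. Cyp1a1 fell below the low-count filter, and its permutation tests could not reach the threshold of 0.005. By limma-voom, 0 of the 6 members that passed the low-count filter had an unadjusted p under 0.005, the study's threshold, with the sexes combined (0.141% of all 19797 genes tested did), in males (0.207%), in females (0.0859%) or in the interaction of sex and exposure (0.217%). None had an unadjusted p under 0.05 in these 4 fits, where 2.1%, 4.28%, 2% and 3.79% of genes did. The smallest adjusted limma p of any member in these fits was 0.963. The edgeR quasi-likelihood test and the DESeq2 Wald test also called 0 of 6 at either threshold. Over all genes, 0% had an adjusted p under 0.05 in these fits. Control and nPM ranges overlapped for all 6 members in males and in females, where they did not for 0.667% and 0.364% of genes. These backgrounds are low, so a count of 0 does not set the members apart from other genes.

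**Figure D2:**
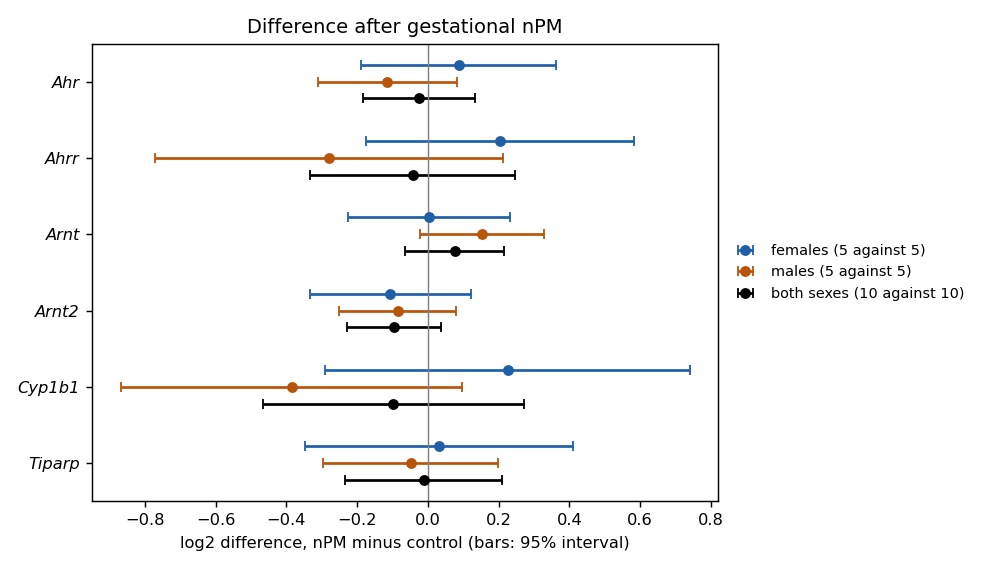
Points are limma-voom log2 differences, nPM minus control, for the 6 tested genes in females, males and both sexes, and bars are 95% intervals. Every interval crosses 0, with the widest for Cyp1b1 and Ahrr.

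Ahr (ENSMUSG00000019256.17, mm10 chr12:35497974-35535038, minus strand) encodes the receptor. Its level was 10.7, 11.6, 8.98, 12.5 and 11.02 CPM in control females and 9.84, 11.6, 12.7, 14.2 and 10.7 CPM in nPM females. In control males it was 16.5, 13.1, 13.2, 12.2 and 13.95 CPM, and in nPM males 12.4, 12.7, 11.5, 13.3 and 13.2 CPM. Exposed and control samples overlapped in both sexes, and the highest sample was control male 1. The log2 difference, nPM minus control, was -0.03 (95% interval -0.18 to 0.13, unadjusted limma p of 0.738) with both sexes, an interval of 0.881-fold to 1.096-fold. Within sex it was -0.11 (95% interval -0.31 to 0.08) in males and 0.09 (-0.19 to 0.36) in females.

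The mean level of Ahr in males was 13.2 ± 1.33 CPM and in females 11.4 ± 1.49 CPM (SD, n = 10 each), with a male minus female log2 difference of 0.23 ± 0.08 (SE). This gave an unadjusted limma p of 0.00714, short of 0.005, and a Benjamini-Hochberg adjusted p of 0.0214, where 40.4% of all genes had an adjusted p under 0.05. The unadjusted p was below 0.005 without nPM female 3, nPM female 4 or nPM male 3, with log2 differences of 0.25, 0.26 and 0.25, and with sample quality weights, 0.20. The other 17 omissions of single samples left it above 0.005. Among them the log2 difference went down to 0.19 (without control female 3) and the unadjusted limma p up to 0.0174 (without nPM female 1). The limma adjusted p was 0.0556 with a replicate block and 0.164 without the 7 samples rich in choroid plexus transcripts (log2 difference 0.22). The difference was 0.33 in control samples alone (limma adjusted p = 0.0484) and 0.12 in nPM samples alone (limma adjusted p = 0.478). The sexes overlapped. Across the 20 samples Ahr varied with the summed hippocampal neuron markers (Pearson r = 0.68, Spearman rho = 0.63; r = 0.78 in 10 females and 0.66 in 10 males). For the oligodendrocyte markers r was -0.24 over the 20 samples, -0.62 in females and -0.80 in males. Over the 20 samples rho was 0.0045, and r was 0.39 without the 2 samples farthest from the median. Control male 1 and nPM female 4, the highest of their sex in Ahr, had the lowest oligodendrocyte sums of their sex, 1831 and 2104 CPM. The correlated values share libraries and depth. Of the 8 neuron markers 1 was lower in males at an unadjusted p under 0.005, as were 17.1% of all genes, and none was higher. An adjusted p under 0.05 was reached by 2 of the 8, beside 40.4% of all genes. The neuron markers summed to 1514 to 2248 CPM in females and 1711 to 2299 CPM in males. Their part in the Ahr values was not tested. Tpgs2 (r = 0.92), Tmem184c (r = 0.90) and Wdr47 (r = 0.88) followed Ahr most closely over the 20 samples.

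Arnt (ENSMUSG00000015522.18, mm10 chr3:95434388-95497240, plus strand), the general partner of AhR and of the hypoxia-inducible factors, separated the sexes completely. Control females had 39.1, 40.3, 47.7, 38.4 and 51.0 CPM and nPM females 42.3, 43.5, 37.5, 41.9 and 50.6 CPM. Control males had 24.7, 30.1, 24.2, 24.1 and 27.3 CPM and nPM males 28.8, 28.4, 28.4, 26.7 and 32.5 CPM. The lowest female was above the highest male, a pattern that 4.81% of all tested genes showed in either direction and 3.14% in this direction. Males were 1.57-fold lower, with a log2 difference of -0.65 ± 0.07 (SE, 95% interval -0.79 to -0.51), an unadjusted limma p of 3.43e-09 and an adjusted p of 2.06e-06. Arnt was the 1 member of 6 with an unadjusted p under 0.005 between the sexes, a threshold that 31.1% of all genes passed, with 17.1% of all genes passing as lower in males, and it ranked 33 of 19797 by p.

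The sex difference in Arnt was measured in both exposure groups, at -0.72 on the log2 scale in control samples alone (limma adjusted p = 0.00270) and at -0.57 in nPM samples alone (limma adjusted p = 0.00499). Without the 7 samples rich in choroid plexus transcripts it was -0.64 (limma adjusted p = 0.00493). The nPM minus control log2 difference was 0.08 with both sexes (95% interval -0.06 to 0.21, unadjusted p of 0.273), 0.15 in males (-0.02 to 0.33) and 0.00 in females (-0.23 to 0.23). The interaction, male minus female nPM difference, was 0.15 (-0.13 to 0.43). Endothelial markers also differed by sex: 4 of 7 (Pecam1, Cdh5, Flt1 and Slco1a4) were lower in males at an unadjusted p under 0.005, as were 17.1% of all genes, none of the 7 was at 0 in any sample, and their sum was 154 to 216 CPM in females and 120 to 146 CPM in males. Of 5 astrocyte markers 2 were higher in males at that threshold, as were 13.93% of all genes (sums of 1055 to 1275 CPM in females and 1203 to 1586 CPM in males), and of 6 microglial markers 2 were (209 to 318 and 270.2 to 317 CPM), again with none at 0. Within a sex, the correlation of Arnt with the summed endothelial markers was 0.48 in 10 females and 0.15 in 10 males. The part of cell composition in the Arnt difference was not tested.

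A processed pseudogene, Gm42672, overlaps Arnt on the same strand, so reads from the overlap may not be told apart, whatever the strand setting of the counting. Because the sexes form separate clusters for Arnt, genes alike in pattern are given within sex. Pcdhgb5, a clustered protocadherin, correlated at 0.93 in females and 0.78 in males, Il18bp at 0.91 and 0.83, and Git2 at 0.89 and 0.85 (n = 10 each). They had been chosen on all 20 samples.

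Arnt2 (ENSMUSG00000015709.9, mm10 chr7:84246278-84410176, minus strand), the partner that neurons favor, overlapped between the sexes. Control females had 208, 226, 180, 181 and 175 CPM and nPM females 147, 190, 211, 176 and 178 CPM. Control males had 193, 171, 206, 166 and 190 CPM and nPM males 181, 159, 162, 188 and 182 CPM. All groups overlapped. The log2 difference between males and females was -0.05 (95% interval -0.19 to 0.08, unadjusted p of 0.412). That between nPM and control with both sexes was -0.10 (-0.23 to 0.04, unadjusted p of 0.151). Within sex it was -0.09 in males (-0.25 to 0.08) and -0.11 in females (-0.33 to 0.12), and the interaction was 0.02 (-0.25 to 0.30).

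The ratio of the partners was higher in males, with Arnt2 at 4.59 ± 0.91 times Arnt in females and 6.88 ± 1.06 times in males (ratio of RPKM, SD, n = 10). The ranges met at their edges, 3.57 to 5.87 in females and 5.82 to 8.86 in males. This ratio carries the difference already given for Arnt and was not tested again. Across the 20 samples Arnt2 was lower where choroid plexus markers were higher (Pearson r = -0.71, Spearman rho = -0.72) and higher where hippocampal neuron markers were (r = 0.70, rho = 0.70). For the neocortex markers r was 0.76 (rho = 0.62), with 0.79 in 10 females and 0.79 in 10 males. The part of these tissues in the Arnt2 values was not tested. Adgra1 (r = 0.91), 6430548M08Rik (r = 0.90) and Chd5 (r = 0.90) were most alike. Arnt2 overlaps the small nuclear RNA gene Gm25790 on the same strand and the antisense gene Gm30873 on the opposite strand. The sources used here do not give the strand setting of the counting, so reads from the overlap with Gm30873 may not be told apart either.

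**Figure D3:**
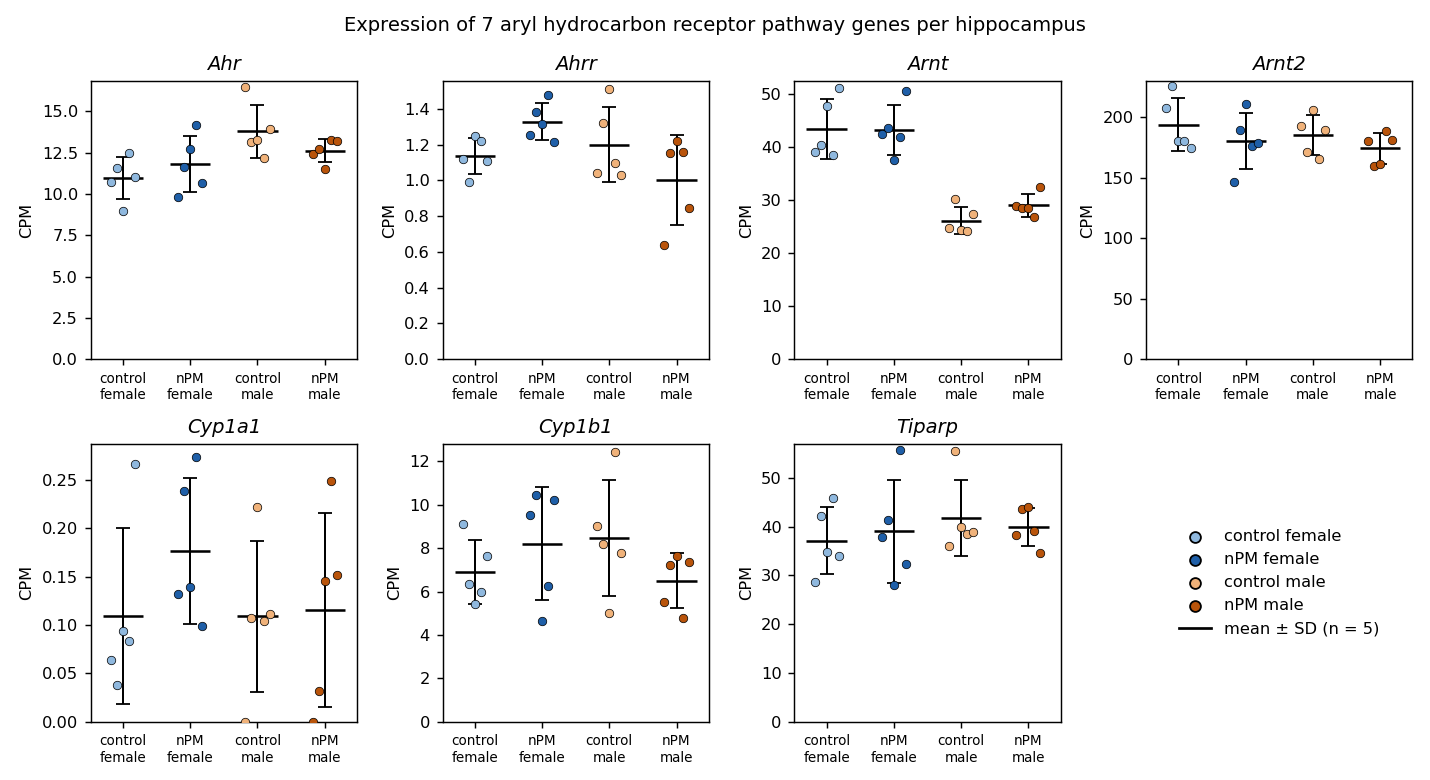
Each panel plots CPM of 1 gene in every sample of the 4 groups, with the mean ± SD (n = 5). For Arnt the females lie at 37.5 CPM or higher and the males at 32.5 CPM or lower, while the 4 groups overlap for the other 6 genes.

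The repressor Ahrr (ENSMUSG00000021575.15, mm10 chr13:74211118-74292331, minus strand) was read at 24 to 44 counts per sample. Levels were 1.12, 0.993, 1.25, 1.22 and 1.11 CPM in control females and 1.26, 1.38, 1.32, 1.48 and 1.21 CPM in nPM females. They were 1.04, 1.32, 1.51, 1.096 and 1.03 CPM in control males and 0.636, 1.15, 1.22, 1.16 and 0.846 CPM in nPM males. Means went opposite ways in the sexes and all groups overlapped, with the lowest value in nPM male 1. The log2 difference was 0.20 in females (95% interval -0.17 to 0.58) and -0.28 in males (-0.77 to 0.21). With both sexes it was -0.04 (-0.33 to 0.25, unadjusted p of 0.764). Tested directly, the sexes differed by -0.48 ± 0.26 (SE, interaction, 95% interval -1.03 to 0.06, limma adjusted p = 0.987), which did not pass. Leaving out single samples moved the male difference between -0.36 (without nPM male 3) and -0.12 (without nPM male 1), and the interaction between -0.56 (without nPM male 3, unadjusted limma p of 0.0487) and -0.32 (without nPM male 1). Between the sexes Ahrr differed by -0.20 (male minus female, 95% interval -0.49 to 0.09, unadjusted p of 0.175). Gm45187 (r = 0.74), Ninl (r = 0.74) and A230005M16Rik (r = 0.73) were most alike, at counts where noise limits such values.

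Tiparp (ENSMUSG00000034640.9, mm10 chr3:65528410-65555518, plus strand), the target that feeds back on AhR, was the most abundant of the 4 target genes per length. Control females had 28.7, 42.3, 34.8, 45.8 and 33.96 CPM and nPM females 37.8, 41.3, 28.02, 55.6 and 32.4 CPM. Control males had 36.0, 55.5, 39.8, 38.5 and 38.9 CPM and nPM males 38.4, 43.7, 44.0, 39.04 and 34.7 CPM. Single high samples, nPM female 4 and control male 2, stood in groups that otherwise overlapped. The nPM minus control log2 difference was -0.01 with both sexes (95% interval -0.23 to 0.21, unadjusted p of 0.911), -0.05 in males (-0.30 to 0.20) and 0.03 in females (-0.35 to 0.41). The interaction was -0.08 (-0.53 to 0.38). Males minus females gave 0.13 (95% interval -0.09 to 0.35, unadjusted p of 0.245). Med13 (r = 0.74), Rnf19a (r = 0.73) and Smurf2 (r = 0.73) were most alike over 20 samples, though within males these values were 0.22, 0.37 and 0.60. A pseudogene, 4931440P22Rik, overlaps Tiparp on the opposite strand, and with the strand setting of the counting not given, reads from the overlap may not be told apart.

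Cyp1a1 (ENSMUSG00000032315.5, mm10 chr9:57697613-57703822, plus strand), the classical reporter of AhR activity, was barely detected. Counts were 2, 1, 3, 3 and 6 in control females and 4, 5, 4, 5 and 3 in nPM females. They were 0, 3, 6, 4 and 4 in control males and 0, 1, 5, 9 and 5 in nPM males, a total of 73 in 20 libraries. The groups overlapped. Pooled by group, the level with its exact 95% Poisson interval was 0.101 CPM (0.0567 to 0.167) in control females, 0.163 (0.101 to 0.249) in nPM females, 0.109 (0.0634 to 0.174) in control males and 0.116 (0.0707 to 0.179) in nPM males. These intervals cover counting error only. Cyp1a1 fell below the low-count filter and was compared by two-sided exact permutation tests on log2 CPM, where 5 against 5 samples cannot give a p under 0.00794. The difference was -0.18 in males (exact permutation p = 0.865) and 0.78 in females (exact permutation p = 0.119). Without control female 5 the female difference was 1.14 (exact permutation p = 0.0159, the smallest that 4 against 5 samples give). Neither of these designs can reach the threshold of 0.005, so no call was possible for Cyp1a1 by these tests.

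Cyp1b1 (ENSMUSG00000024087.3, mm10 chr17:79706953-79715041, minus strand), a related monooxygenase that acts on estradiol and polycyclic hydrocarbons, was above Cyp1a1 per length in every sample. Control females had 9.12, 6.34, 5.42, 5.98 and 7.65 CPM and nPM females 9.51, 10.4, 4.65, 6.24 and 10.2 CPM. Control males had 9.02, 8.17, 5.02, 12.4 and 7.79 CPM and nPM males 5.54, 7.20, 7.63, 4.80 and 7.37 CPM. The groups overlapped, and control male 4 was the highest of all. The log2 difference was -0.38 in males (95% interval -0.87 to 0.10) and 0.22 in females (-0.29 to 0.74), with -0.10 when the sexes were combined (-0.47 to 0.27, unadjusted p of 0.589). The interaction was -0.61 ± 0.34 (SE, 95% interval -1.32 to 0.11, limma adjusted p = 0.987) and did not pass. With single samples left out, the male difference went from -0.54 (without control male 3, unadjusted limma p of 0.0132) to -0.21 (without control male 4). The female one went from 0.12 (without nPM female 5) to 0.44 (without nPM female 3, unadjusted limma p of 0.0441), and the interaction from -0.82 (without nPM female 3, unadjusted limma p of 0.0165) to -0.43 (without control male 4). These single-sample changes left all of them above 0.005. Between the sexes the difference was 0.01 (95% interval -0.36 to 0.38, unadjusted p of 0.975).

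Cyp1b1 varied with markers of meningeal fibroblasts (Dcn, Lum, Col1a1, Col1a2, Slc6a13, Slc22a6 and Igf2), cells that lie at the surface of the brain. Their summed level ranged from 38.4 to 110 CPM in control females, 25.7 to 215 in nPM females, 33.98 to 249 in control males and 58.2 to 186 in nPM males, with none of the 7 at 0 in any sample. Over the 20 samples Pearson r with Cyp1b1 was 0.79 and Spearman rho 0.82, r was 0.78 without the 2 samples farthest from the median, and r was 0.80 in 10 females and 0.89 in 10 males. For the choroid plexus markers r was 0.53, and 0.37 without 2 samples. For markers of the mural cells of vessels r was 0.38, with 0.56 without 2 samples, 0.21 in females and 0.63 in males. For the endothelial markers r was 0.25, with -0.02 without 2 samples, 0.26 in females and 0.70 in males. None of the meningeal markers differed with exposure at an unadjusted p under 0.005. Their log2 differences, nPM minus control, were below 0 for 7 of 7 in males (median -0.40) and above 0 for 6 of 7 in females (median 0.50, with Lum at an unadjusted p under 0.05), and the interaction was below 0 for 7 of 7 (median -0.72). Medians over all genes tested were -0.00132, -0.0113 and 0.0130. The choroid plexus markers went the same ways, below 0 for 7 of 7 in males (median -0.40) and above 0 for 7 of 7 in females (median 0.92). Their interaction was below 0 for 7 of 7 (median -1.26), so these directions were not particular to the meningeal markers. Markers of 1 tissue vary together and are not separate observations. Without the 7 samples rich in choroid plexus transcripts, the Cyp1b1 interaction was -0.18 (limma adjusted p = 0.912). The same omission moved the interaction away from 0 for Ahrr, to -0.84, for Ahr, from -0.20 to -0.42, and for Arnt, from 0.15 to 0.33. None of these had an unadjusted p under 0.005, which 0.672% of all genes had in this fit, but that of Ahrr was under 0.05 (unadjusted limma p of 0.0444). The omission left 13 samples, with control males 1 and 3 the only control males, and control male 1 had the highest Ahr of all 20. The part of the small groups in these shifts was not tested. Cp, the ceruloplasmin gene (r = 0.87), Slc6a20a (r = 0.87) and Colec12 (r = 0.85) were most alike. The part of attached meninges, choroid plexus or vessels in the Cyp1b1 values was not tested further.

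**Figure D4:**
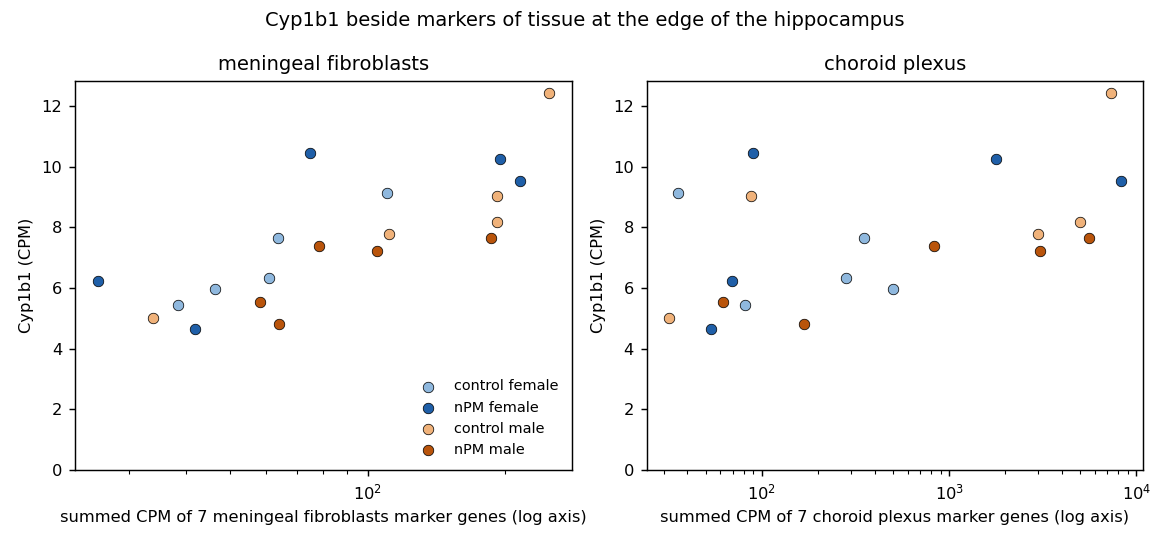
Cyp1b1 in CPM is plotted for the 20 samples, colored by group, against the summed CPM of 7 meningeal fibroblast markers (left) and of 7 choroid plexus markers (right), both on log axes. Cyp1b1 is higher where the meningeal sum is higher, r = 0.79, and less so for the choroid plexus sum, r = 0.53.

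Lists of other pathway genes held 63 symbols, of which 61 were in the table and 50 passed the filter. The 11 below it included the liver enzyme Cyp1a2, read at 0 to 3 counts, and the kynurenine enzymes Kmo, Kynu and Aadat, whose pathway makes AhR ligands from tryptophan. By limma-voom, 0 of the 50 had an unadjusted p under 0.005 with exposure in both sexes, in males, in females or in the interaction. At an unadjusted p under 0.05 the counts were 0, 1, 2 and 2 of 50 (2.1%, 4.28%, 2% and 3.79% of all genes). The edgeR quasi-likelihood test called 0 at 0.005 in each. DESeq2 called 1 of 50 in females, beside 0.279% of all genes it tested there, and 0 in the others.

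The gene DESeq2 called was Npas4, a bHLH-PAS factor induced by neuronal activity. Its level was 9.35 ± 3.16 CPM in control females and 5.43 ± 1.25 CPM in nPM females (SD, n = 5), with a limma log2 difference of -0.78 ± 0.27 (SE, an unadjusted p of 0.0118, above 0.005). DESeq2 gave -0.78 and an unadjusted p of 0.00187. In control males it was 6.44 ± 3.55 CPM and in nPM males 6.18 ± 2.99 CPM, and the interaction was 0.83 (95% interval -0.36 to 2.03). The female ranges overlapped.

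With both sexes, the smallest unadjusted p of each list belonged to Hsp90ab1 (log2 difference 0.04, p of 0.393) among the chaperones that hold AhR, Ugt1a6a (-0.47, p of 0.228) among other AhR targets, Hif3a (-0.35, p of 0.0976) among other bHLH-PAS factors, Il4i1 (0.18, p of 0.290) in the kynurenine and tryptophan list, Ncoa2 (-0.05, p of 0.170) among coregulators and Vegfa (0.18, p of 0.0544) among hypoxia targets. Nqo1, the quinone reductase that AhR and NRF2 both induce, had a log2 difference of -0.04 (95% interval -0.57 to 0.48, p of 0.864). None of these passed. The median over the 50 was -0.01, as it was over all genes tested.

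Between the sexes 22 of the 50 pathway genes (9 higher and 13 lower in males) had an unadjusted p under 0.005, beside 31.1% of all genes tested. The median male minus female log2 difference was -0.09 over the 50 and 0.02 over all genes. Ranges did not overlap between the sexes for 5 of the 50, with Xdh, Arntl2, Crebbp and Ep300 lower in males and Bnip3 higher, beside 4.81% of all genes. Leaving out the 7 samples rich in choroid plexus transcripts lowered the 22 to 12 and the share of all genes to 14.94%. Control samples alone gave 15, beside 18.99% of all genes, and nPM samples alone gave 9, beside 11.03%.

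Factors of the same family as AhR and ARNT went both ways. Of 10 tested, 2 were higher and 4 lower in males at an unadjusted p under 0.005, beside 13.93% and 17.1% of all genes. On the log2 scale Hif1a (0.24) and Clock (0.21) were higher, and Epas1 (-0.44), Hif3a (-1.32), Npas2 (-0.44) and Arntl2 (-0.65) were lower. Hif3a, an inhibitory relative of Hif1a that pairs with ARNT, had 13.8 ± 5.38 CPM in females and 5.46 ± 1.63 CPM in males (SD, n = 10). Arntl2, a paralog of the clock gene Arntl, had 12.9 ± 2.27 and 8.15 ± 1.19 CPM.

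Of 8 coregulators, 5 were lower in males and none was higher at an unadjusted p under 0.005, which 17.1% of all genes passed as lower and 13.93% as higher. They were the acetyltransferases Crebbp (-0.38) and Ep300 (-0.36) and the nuclear receptor coactivators Ncoa1 (-0.17), Ncoa2 (-0.13) and Ncoa3 (-0.30). Crebbp had 207 ± 12.8 CPM in females and 159 ± 17.1 CPM in males (SD, n = 10), and Ep300 had 117 ± 7.28 and 91.4 ± 7.81 CPM. Of 4 chaperone genes, Hsp90aa1 (0.33) and Ptges3 (0.27), which encodes p23, were higher in males.

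Among 9 other AhR targets, Xdh, the gene of xanthine dehydrogenase, was lower in males by -1.33 ± 0.11 (SE, unadjusted limma p of 4.42e-11), with 13.2 ± 2.15 CPM in females and 5.30 ± 0.96 CPM in males (SD, n = 10). The amino acid transporter Slc7a5 was lower too (-0.45), and the other 7 did not pass. Of 7 kynurenine and tryptophan genes only Il4i1 passed, lower in males by -0.80 at 8 to 41 counts per sample. Of 12 hypoxia targets, Bnip3 (0.35), Ldha (0.25), Pdk1 (0.26), Pgk1 (0.23) and Higd1a (0.31) were higher in males. The glucose transporter Slc2a1 (-0.39), abundant in endothelial cells, was lower. At the unadjusted p under 0.005 used for these lists, 13.93% of all genes passed as higher in males and 17.1% as lower.

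**Figure D5:**
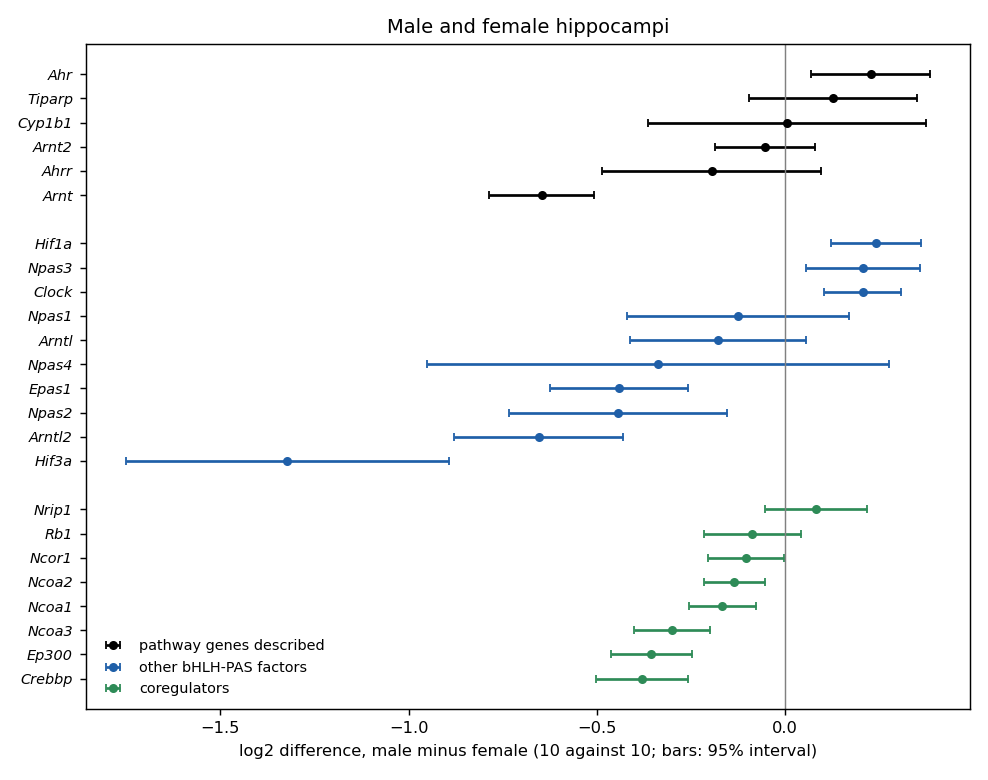
Points are limma-voom log2 differences, male minus female (10 against 10), with 95% intervals, for the 6 tested pathway genes, 10 other bHLH-PAS factors and 8 coregulators. Arnt lies at -0.65, Ahr at 0.23 and Arnt2 at -0.05, and 5 coregulators lie below 0 at an unadjusted p under 0.005.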

How the data were processed

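For 20 libraries the authors deposited raw counts per gene, made with featureCounts 1.5.0-p3 (Gencode M11) from HISAT2 alignments to the mm10 genome. The table the authors deposited beside them gives positions, exon lengths and the mean RPKM per gene, which equaled that recomputed from the counts within 4.91e-11 and entered no test. The strand setting of the counting is not given in the sources used here. Total counts were 19092067 to 38663408 per sample.

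TMM factors came from edgeR 4.0.16 over all samples. filterByExpr over the 4 groups (minimum count 10, minimum total 15) kept 19797 genes. With limma 3.58.1 in R 4.3.3, voom models were fitted across them for exposure with sex as covariate, exposure within each sex, the interaction, and sex with exposure as covariate. Calls used the study's unadjusted p under 0.005, beside Benjamini-Hochberg adjusted p. Cyp1a1, below the filter, was compared by exact permutation on log2 CPM with 0.5 added to each count. On simulated data, the fits recovered 170 to 196 of 200 genes changed 2-fold and also called 80 to 105 unchanged genes. The changed genes were drawn from those with higher counts, so smaller differences and low counts were not covered. Alternatives were RLE normalization, no filter, edgeR, DESeq2 1.42.0, sample quality weights, mitochondrial genes left out, age, a replicate block, 1 fit of the 4 groups, 1 added to each count for Cyp1a1, and each sample left out.

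Named genes were the 7 members, pathway genes past 0.005 in any fit, the gene of smallest p per list, and the 3 genes most correlated with each tested member. Npas4 and Nqo1, and the markers named, were chosen after their values were seen. Some genes of the lists are not reported here and entered no list count. The members and lists were chosen with earlier results of these data known. Promoters came from RefSeq, with GCGTG and TNGCGTG searched on both strands.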

Additional observations from a re-analysis of the deposited data

Results flagged for a closer look

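Of 28 groups of 5 samples (7 genes in 4 groups), 2 held a sample whose gap to its neighbor was large for the range of its group by Dixon's test, and chance flags about 1 in 20 such groups. Control male 2 was the highest of its group for Tiparp, with 1554 counts, 55.5 CPM and a log2 CPM of 5.79. It was also 1 of the 7 samples rich in choroid plexus transcripts, and the part of that tissue in its Tiparp level was not tested. Control male 1 was the lowest of its group for Cyp1a1, with 0 counts and a log2 CPM of -5.75 after 0.5 was added to each count.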

How the results depend on the processing

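The count of members called was 0 in every alternative tried for the 4 exposure fits. Between the sexes it was 1, or 2 with sample quality weights, where Ahr passed as well, and 1 to 2 with single samples left out. Arnt stayed lower in males past an unadjusted p under 0.005 in all alternatives, at -0.72 to -0.57. For Cyp1a1, leaving out single samples gave log2 differences of -0.77 to 0.49 in males and 0.56 to 1.14 in females.

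Differences close to 0 changed sign without passing the threshold, and the cause was not tested. For Tiparp with both sexes these were 0.00339 by edgeR, 0.00349 by DESeq2 and 0.0537 without the 7 samples rich in choroid plexus transcripts, and with single samples left out the range was -0.0699 to 0.0416. Ahr with both sexes gave 0.0457 without those 7 samples (single samples left out, -0.0619 to 0.0116). Arnt in females gave -0.00397 by edgeR (single samples left out, -0.0588 to 0.0612), and Tiparp in females gave -0.0178 with sample quality weights (single samples left out, -0.0945 to 0.142). The Arnt2 interaction was -0.116 without the 7 samples (single samples left out, -0.0521 to 0.0809). Cyp1b1 between the sexes was -0.0173 by edgeR, -0.0187 by DESeq2, -0.111 with sample quality weights, -0.0120 without mitochondrial genes, -0.305 in nPM samples alone and -0.0930 without the 7 samples (single samples left out, -0.105 to 0.0818). Between the sexes, Ahrr was 0.0421 in control samples alone and Tiparp -0.0177 without the 7 samples. With single samples left out, sign also changed for Ahrr (-0.0733 to 0.0464) and Cyp1b1 (-0.171 to 0.0167) with both sexes, Tiparp in males (-0.0946 to 0.0552) and the Tiparp interaction (-0.189 to 0.0460). The splits by exposure and the removal of the 7 samples were chosen after seeing the data.

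The replicate numbers gave no clear sign of pairing: of 20 pairs with the same number, correlations of deviations were -0.36 to 0.22, 7 were over 0.1, and 4 samples correlated best with their own number. Such correlations cannot exclude that equal numbers mark a shared litter or day. The replicate block changed no member call at an unadjusted p under 0.005, and the limma adjusted p of Ahr between the sexes was 0.0556 with it. It gave 20, 35, 21, 43 and 5739 genes over the whole table, beside 28, 41, 17, 43 and 6147 without it (both sexes, males, females, interaction, sexes compared), and 0.000588 for Tiparp with both sexes and -0.00614 for Arnt in females. With it, Npas4 in females passed (-0.75, p of 0.00128), as it did without control female 1 (-0.96, p of 0.00163). These 2 female fits called 0.106% and 0.121% of all genes. Over all alternatives other than single samples left out, the whole-table counts were 14 to 71, 35 to 113, 17 to 76, 39 to 149 and 2184 to 6831, the last lowest in nPM samples alone. Cyp1a1 was read at 0 to 9 counts and Ahrr at 24 to 44 counts per sample.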
